A study of Mus musculus with 6 samples.

Results

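The STAT genes Stat2, Stat3, Stat4, Stat5a, Stat5b and Stat6 were followed in red cell precursors that lack STAT5, to describe the loss of the targeted pair and the transcript levels of the other family members. The members are all probe sets that the array annotation pairs with 1 of these 6 symbols alone, 13 of 45037 probe sets tested: 2 each for Stat2, Stat5a, Stat5b and Stat6, 4 for Stat3 and 1 for Stat4. The series holds 6 Affymetrix Mouse430_2 arrays of RNA from fetal liver cells carrying the Ter119 antigen, taken from mouse embryos at day 14.5. Wild type embryos gave 3 pools and STAT5 knockout embryos the other 3, with cells of 3 to 5 embryos of 1 genotype combined in each pool, so replicates are separate pools of animals. The sources used here do not name the strain, the allele or any Cre driver of the knockout.

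STAT proteins are latent transcription factors. A cytokine that binds its receptor activates a receptor-bound kinase of the JAK family, which phosphorylates a STAT on a conserved tyrosine. The phosphorylated STATs then pair through their SH2 domains, enter the nucleus and bind short palindromic elements. STAT5A and STAT5B, encoded by neighbouring genes, are the main STATs downstream of the erythropoietin receptor and JAK2 in erythroid cells. STAT3 serves receptors of the interleukin 6 family and others, STAT6 those of interleukin 4 and 13, STAT4 that of interleukin 12, and STAT2 works with IRF9 below the type I interferon receptor. Activity is set largely by phosphorylation, which an expression array does not measure.

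Values are deposited linear intensities, called signals, and a difference is the mean log2 signal of the knockout pools less that of the wild type pools. The errors are the standard error (SE) and the 95% confidence interval of a limma fit over all probe sets, and a level is a mean of log2 signals ± SD (n = 3 pools of each genotype). Array medians ran from a signal of 175.6 to one of 215.8. The control level is a signal of 162.5 (7.34 in log2), under which lay 95% of the values that 27 bacterial control probe sets gave over all arrays. Levels of different probe sets are not set against each other, as each has its own brightness. The number of arrays limits the precision: an exact permutation test of 3 against 3, two-sided, cannot give a p below 0.1. In simulated data the limma fit recovered 0% of 100 probe sets changed by 2 on the log2 scale and 0% of 100 changed by 1. The fit with a mean-variance trend recovered 62% and 31%. Simulated noise followed the trend of spread with brightness, and no probe set had a spread of its own. That setting favours the fit with the trend, so these rates need not hold for the real arrays. The median difference was -0.072 over all probe sets and -0.085 over 18193 genes, each read at its brightest probe set.

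Stat5a, 1 of the 2 targeted genes, was lower in every knockout pool. At its brighter probe set, 1421469_a_at, signals were 338.5, 418.5 and 365.5 in wild type pools 1, 2 and 3. They were 132.4, 124.2 and 156.5 in knockout pools 1, 2 and 3. All 3 wild type pools lay above the control level and all 3 knockout pools under it. The level was 8.54 ± 0.15 in wild type and 7.10 ± 0.17 in knockout, so wild type was at least 2.29-fold higher, with the knockout values set at the control level. At the dimmer probe set, 1450259_a_at, wild type pools read 285.5, 178.3 and 200.2. Knockout pools read 3.3, 68.6 and 17.5 there, all under the control level, and wild type was at least 1.33-fold higher. The knockout values spread widely at this level (SD 2.19 against 0.35 in wild type) and give no more than that bound.

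Stat5b, the other targeted gene, was lower in knockout pools at both probe sets, with no overlap. At 1422102_a_at the wild type signals were 575.9, 551.7 and 506.1, a narrow range. Those of the knockout pools were 204.9, 333.6 and 159.9, and pools 1 and 2 stayed above the control level. The level went from 9.09 ± 0.09 to 7.79 ± 0.54, 2.45-fold lower (difference -1.29, SE 0.32, interval -2.07 to -0.51). At 1422103_a_at wild type pools read 731.9, 486.6 and 496.1 and knockout pools 44.0, 138.3 and 147.8. Every knockout pool lay under the control level there, and wild type was at least 3.45-fold higher. The signal left at 1422102_a_at in knockout was therefore seen at only 1 of the 4 probe sets of the targeted genes. The sources used here do not say which exons the knockout removes or which the probe sets cover. Whether a probe set of one paralog also detects the other was not tested.

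**Figure D1:**
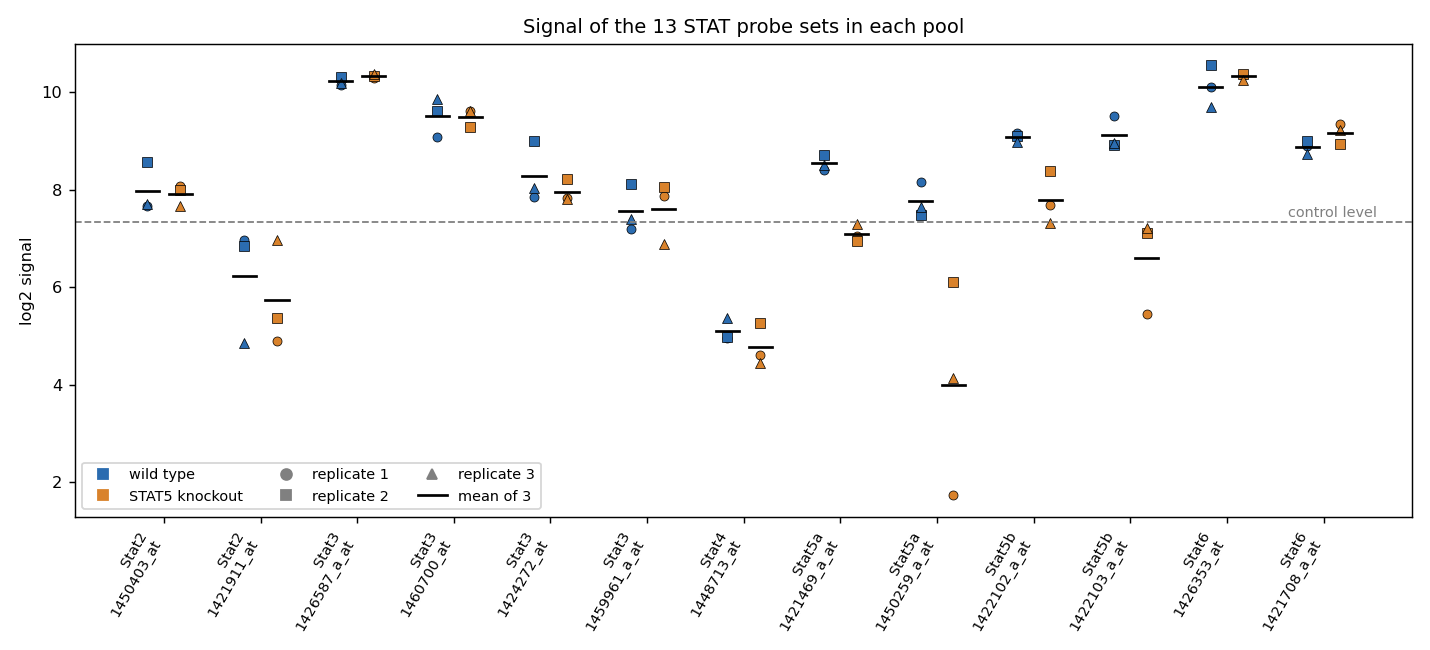
Log2 signal (vertical axis) of each of the 13 STAT probe sets (horizontal axis) in the 3 wild type and 3 STAT5 knockout pools, with the mean of each group as a bar and the control level of 7.34 as a dashed line. At the 4 probe sets of Stat5a and Stat5b every knockout point lies below every wild type point, and at the 9 others the groups overlap.

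The 4 probe sets of Stat5a and Stat5b met the criterion the submitters state, an unadjusted p under 0.05 with a change of over 1.5-fold, computed here by the methods' t-test on log2 values. Over all probe sets 3.05% met it in the direction of lower in knockout and 5.19% in either. All knockout arrays lay below all wild type arrays at these 4, against 8.95% of all probe sets. None of the 13 STAT probe sets passed an adjusted p of 0.05 in limma (0 of 45037 passed, or 0%). At an unadjusted p under 0.05 in limma were the same 4 of 13 and 3606 of all probe sets (8.01%, and 4.9% in the direction of lower). The smallest adjusted p of a member was 0.237, for Stat5a 1421469_a_at. With the mean-variance trend 70 probe sets passed (0.155%), and none of the 13 was among them. Adjusted p for the 4 then ran from 0.0899 to 0.235. After adjustment the methods' t-test passed 0 probe sets. The count of 4 meeting the submitters' criterion fell to 2 without wild type pool 1 and without wild type pool 2, and to 2 with the replicate number as a block.

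Stat5a and Stat5b are close paralogs, and their promoter windows were compared. The RefSeq table (build GRCm38.p6) lists 9 start sites for the 6 genes, each with 250 bases before and 50 after it. In each of 33 pairs of windows from different genes the best ungapped match of 40 bases before the start was taken. The best of all was between the second listed start of Stat5a and the second of Stat5b, with 36 of 40 bases identical, shown here with identical bases in capitals because it is the closest match found between promoters of different STAT genes.
Stat5a: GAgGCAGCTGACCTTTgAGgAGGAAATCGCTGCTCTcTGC
Stat5b: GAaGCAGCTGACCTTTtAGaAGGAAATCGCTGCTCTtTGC
The Stat5a stretch is chr11:100860432-100860471 on the plus strand, 52 to 13 bases before that start. The Stat5b stretch is chr11:100822574-100822613 on the minus strand, 43 to 4 bases before its start. The other 3 pairs of Stat5a and Stat5b windows shared 26, 24 and 22 of 40 bases, and pairs from other combinations of genes 20 to 25, so the likeness was found at this pair of starts.

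Stat3, the neighbour of the targeted pair, had signals in knockout pools that overlapped those of wild type at all 4 probe sets. Its brightest probe set, 1426587_a_at, had the smallest SE of all STAT probe sets. It read 1131.9, 1281.8 and 1176.2 in wild type and 1248.4, 1297.6 and 1332.7 in knockout pools. Only wild type pool 2 reached into the knockout range. The level was 10.22 ± 0.09 in wild type and 10.34 ± 0.05 in knockout, a difference of 0.11 (SE 0.19, adjusted p = 0.884, limma). The interval of -0.35 to 0.58 corresponds to between 0.783-fold and 1.49-fold of wild type.

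The other Stat3 probe sets varied more between wild type pools than between genotypes. At 1460700_at wild type pools read 540.1, 780.3 and 930.7 and knockout pools 780.3, 624.1 and 783.9. The difference was -0.013 (SE 0.28, interval -0.70 to 0.67). At 1424272_at wild type pools read 229.8, 511.7 and 261.7 and knockout pools 229.2, 299.4 and 225.5. Wild type pool 2 stood alone there, and the difference of -0.33 (SE 0.36) became 0.023 without it. At 1459961_a_at, near the control level, wild type pools read 146.1, 276.9 and 170.1 and knockout pools 234.4, 266.8 and 117.8. Its difference was 0.033 (SE 0.42), and 2 arrays of each genotype lay above the control level.

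Stat6 had higher means in knockout pools at both probe sets, by less than the errors allow a call. At 1426353_at wild type pools read 1097.6, 1499.8 and 832.5 and knockout pools 1312.2, 1321.7 and 1225.6. The knockout pools were close to each other (10.33 ± 0.06) inside the wild type range (10.12 ± 0.42). The difference was 0.21 (SE 0.27, interval -0.46 to 0.88, adjusted p = 0.848, limma), and 0.0030 without wild type pool 3. At 1421708_a_at wild type pools read 480.3, 512.4 and 424.1 and knockout pools 650.4, 493.8 and 595.7. Knockout pool 2 lay within the wild type range and the other two above it. The difference was 0.29 (SE 0.22, interval -0.24 to 0.82, adjusted p = 0.736). After quantile normalization or median centring the groups no longer overlapped at this probe set (differences 0.31 and 0.40), with the adjusted p still at 0.727 and 0.707.

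Stat2 was measured just above the control level at 1 probe set and under it at the other. At 1450403_at wild type pools read 202.2, 381.8 and 208.0 and knockout pools 270.3, 254.7 and 202.7. Wild type pool 2 was again the highest, knockout pools 1 and 2 lay between it and the other wild type pools, and knockout pool 3 read close to the lowest of these. The difference was -0.067 (SE 0.32, interval -0.86 to 0.72), and 0.23 without wild type pool 2. At 1421911_at signals ran from 29.1 to 125.2 in wild type and from 30.0 to 124.6 in knockout pools, so no fold is given. STAT2 acts through the interferon-stimulated response element, and the Stat2 promoter window itself holds the core letters of such an element, TTTC repeated after 2 bases of any kind. The match, in capitals and with 10 bases on each side, is printed because it is the kind of element STAT2 is known to act through.
Stat2: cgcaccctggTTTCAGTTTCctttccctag
It lies at chr10:128270266-128270295 of GRCm38.p6, plus strand, and the motif starts 222 bases before the gene's start. On either strand the motif occurs in 3.44% of 32851 RefSeq promoter windows of 300 bases and in 2 of the 9 STAT windows, the other at the second start of Stat4. The STAT element TTCNNNGAA occurs in 8.3% of all windows and in 0 of these 9. The related element that STAT6 prefers, with 4 bases in place of 3 between TTC and GAA, occurs in 6.95% of all windows and in 1 of the 9, that of Stat2. Such matches describe letters and not binding.

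Stat4, known from T and natural killer cells, was not above the control level on any array. Its only probe set, 1448713_at, read 30.9, 31.6 and 41.6 in wild type and 24.3, 38.3 and 21.7 in knockout pools. The groups overlapped, and no fold is given because both lie under the control level. Of 8 measured markers of T and natural killer cells, 2 were also under that level on all 6 arrays (Cd3g and Cd4). A group mean above it was found for 4, of which Cd8a was above it on 6 arrays, Il2rb on 5, Thy1 on 4 and Ncr1 on 3.

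Across Stat2, Stat3, Stat4 and Stat6 the groups overlapped at 9 of 9 probe sets, where 15.8% of all probe sets had groups that did not overlap. None of the 9 had an unadjusted p under 0.05 by limma, with or without the trend, or by the methods' t-test. The median difference was -0.013, and 5 of the 9 were below 0, against 56.2% of all probe sets. After median centring 6 were above 0, with a median of 0.10 where that of all probe sets was 0.041. Of the 7 with a group mean above the control level, the interval included 0 at all 7. Its upper bound lay under a 2-fold rise at 6, the exception being Stat3 1459961_a_at with a bound of 1.06. With median centring or quantile normalization the bound was again under a 2-fold rise at 6 of the 7. These bounds come from the intervals and not from calls.

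**Figure D2:**
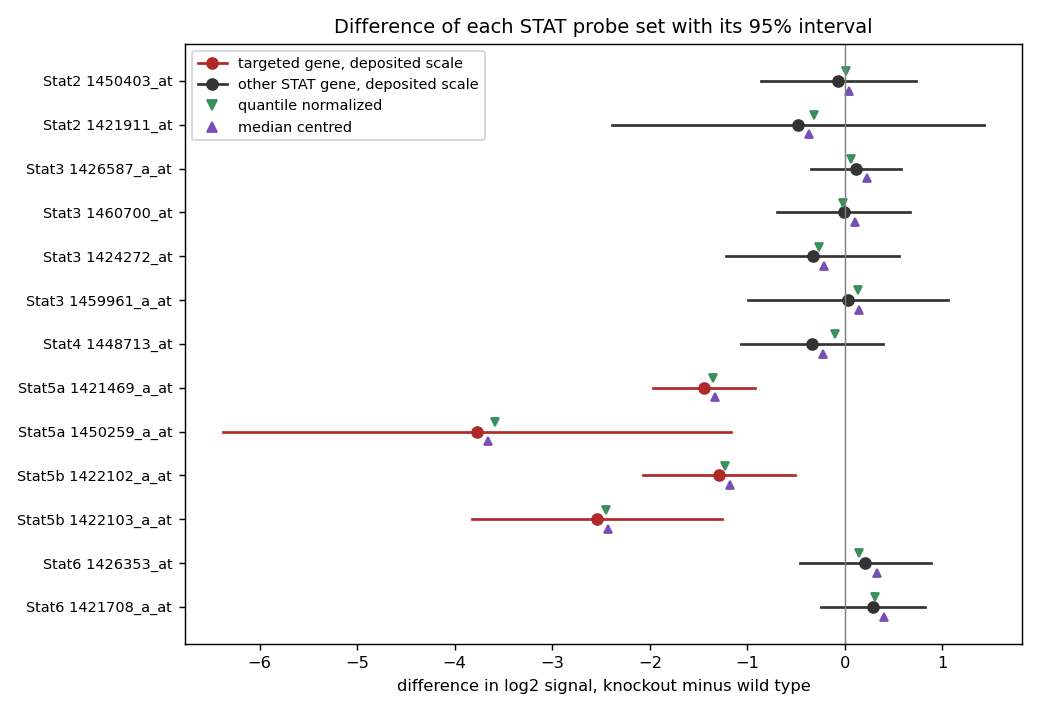
Difference in log2 signal, knockout minus wild type (horizontal axis), of each STAT probe set (vertical axis), with the 95% interval of the limma fit as a line; triangles give the difference after quantile normalization or median centring. The intervals of the 4 Stat5a and Stat5b probe sets lie below 0, and those of the other 9 include 0. Where a group lies under the control level, the plotted difference is not a measured fold.

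The small differences of the other STAT genes moved with single arrays. Leaving out wild type pool 2 gave the largest move at 4 of the 9 probe sets, and another array did at the other 5. Wild type pool 2 was the highest of the wild type pools at 6 of these 9 probe sets, where it was the highest at 42.4% of all probe sets. Its median deviation from the wild type mean was 0.43 over the 9 and 0.097 over all probe sets. Without it the difference at Stat6 1426353_at was 0.43. Stat3 1459961_a_at went to 0.30 without it and to 0.40 without knockout pool 3, and Stat3 1460700_at moved most without wild type pool 1, to -0.23. The bright Stat3 probe set stayed between 0.074 and 0.16 whichever array was left out. At Stat6 1421708_a_at the range was 0.20 to 0.40.

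**Figure D3:**
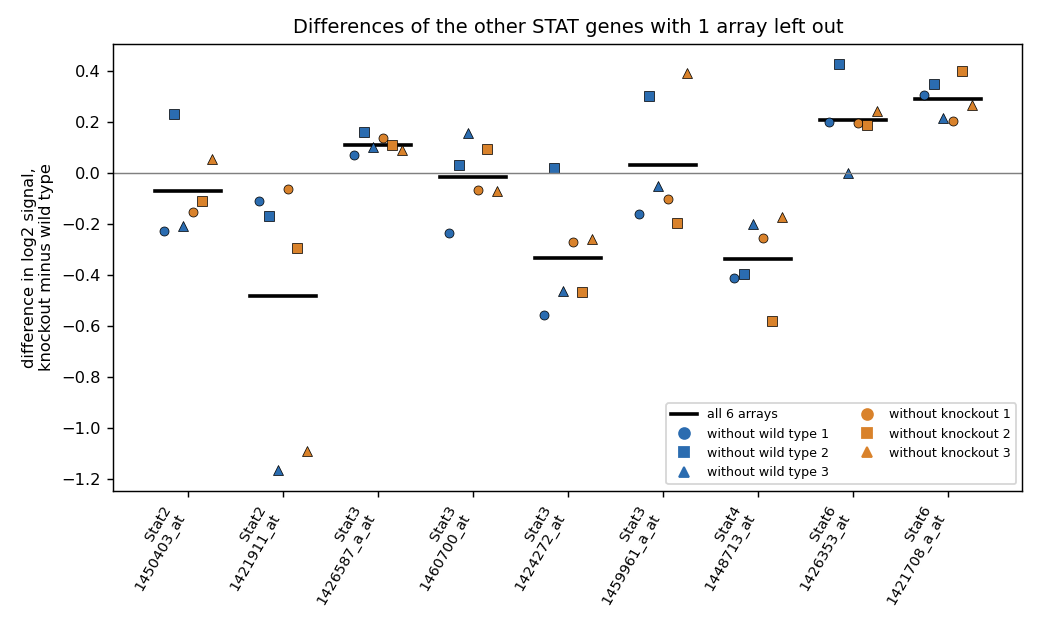
Difference in log2 signal, knockout minus wild type (vertical axis), of the 9 probe sets of Stat2, Stat3, Stat4 and Stat6 (horizontal axis) with all 6 arrays (bar) and with each array left out in turn (points). Leaving out wild type pool 2 moves Stat3 1424272_at from -0.33 to 0.023 and Stat2 1450403_at from -0.067 to 0.23; Stat2 1421911_at and Stat4 1448713_at lie under the control level on all arrays, and their points measure no change.

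Stat3 lies directly beside the targeted pair, and other genes around the locus were read for comparison. In the gene order of GRCm38.p6, Stat5b and Stat5a stand side by side on opposite strands, and Stat3 follows Stat5a. Of the 10 genes on each side 14 were measured. None passed in limma (1 of 14 had an unadjusted p under 0.05, against 7.21% of all genes), in limma with the trend or, after adjustment, in the methods' t-test. Their median difference was -0.069, and 10 of 14 were below 0, against 58.1% of all genes. On the Stat5b side the nearest measured genes were Ghdc, which read near the control level, Hcrt, which encodes the neuropeptide orexin (-0.037), and Rab5c, a GTPase of early endosomes. Rab5c read 2818.1, 2280.2 and 2882.9 in wild type and 1285.1, 1781.5 and 2050.1 in knockout pools, without overlap (difference -0.66, SE 0.26, adjusted p = 0.621, limma). On the Stat5a side, beyond Stat3, were Cavin1, a coat protein of caveolae (-0.35), and Atp6v0a1, a subunit of the vacuolar proton pump (-0.20).

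**Figure D4:**
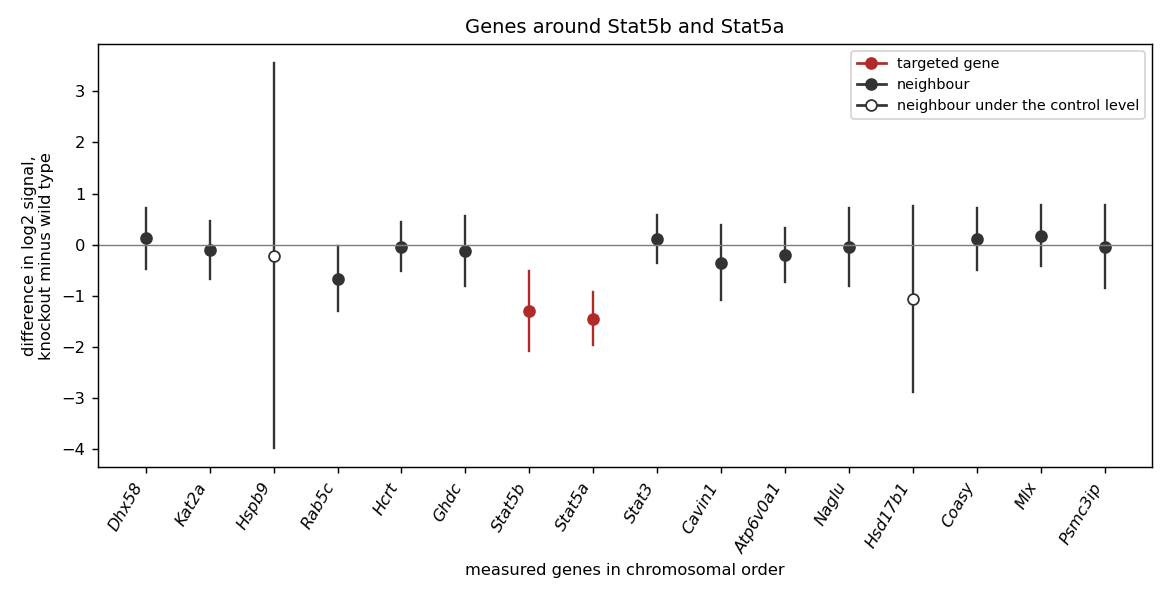
Difference in log2 signal, knockout minus wild type (vertical axis), with its 95% interval, for the measured genes around Stat5b and Stat5a in chromosomal order (horizontal axis, not to scale), each at its brightest probe set. Stat5b (-1.29) and Stat5a, whose knockout values are under the control level, lie below 0, and Stat3 next to them lies at 0.11.

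Upstream of the STATs, the JAK kinases lay on both sides of 0. Jak2, the kinase of the erythropoietin receptor, read 3147.9, 2724.9 and 3752.9 in wild type and 4902.8, 3945.5 and 3594.1 in knockout pools, a difference of 0.37 (SE 0.24). At its other probe set the difference was 0.50 with all knockout above all wild type pools. Jak1, which serves interferon and interleukin 6 family receptors, read 5377.4, 4257.3 and 4970.3 against 3740.2, 3896.6 and 3359.2, without overlap (-0.41, SE 0.21). Its other probe sets gave -0.39 and -0.13. Jak3, the kinase of lymphoid cytokine receptors, differed by 0.40 (SE 0.35) with overlap. Tyk2, a partner of interferon receptors, differed by -0.049 (SE 0.20). Its dimmer probe set gave 1.02 with overlapping groups (SE 0.55, interval -0.32 to 2.35). None of the 4 passed (adjusted p between 0.665 and 0.960, limma).

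Of 26 measured STAT-coupled cytokine receptor genes 14 were lower and 12 higher, with a median of -0.024. No receptor gene passed in limma or in limma with the trend. Ifnar1 alone (1 of 26) had an unadjusted p under 0.05, where 7.21% of all genes had such a p. Ifnar1, a chain of the type I interferon receptor above STAT2, read 693.3, 965.8 and 971.8 in wild type and 1181.6, 1483.6 and 1409.4 in knockout pools, without overlap (difference 0.64, SE 0.24, adjusted p = 0.612). Its second probe set gave 0.63. Csf2rb, the shared chain of the interleukin 3 and GM-CSF receptors, differed by -0.46 and -0.51 at its probe sets, without overlap at either. Il7r (-0.47) and the leptin receptor gene Lepr (-0.46) also had lower means. The erythropoietin receptor gene Epor differed by 0.28 (SE 0.22) with overlapping groups.

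Among 28 measured STAT inhibitors and partners 1 passed with the trend, Socs3, where 0.214% of all genes did. At an unadjusted p under 0.05 in limma 2 were lower (4.49% of all genes) and 1 higher (2.72%). Socs3, the feedback inhibitor that STAT3 and STAT5 both induce, read 983.8, 745.0 and 857.4 in wild type and 95.1, 117.6 and 157.2 in knockout pools. All knockout pools lay under the control level, and Socs3 fell at least 5.27-fold (adjusted p = 0.0094 in limma with the trend, 0.102 without it). This call ended without wild type pool 1 (0.0638). Cish, a STAT5-induced inhibitor, read 1206.7, 993.6 and 1427.4 against 463.2, 752.4 and 407.2 (-1.20, adjusted p = 0.503). Ptpn2, a phosphatase that removes phosphate from STAT proteins in the nucleus, had higher signals in all knockout pools at its brightest probe set (difference 0.91, SE 0.28, adjusted p = 0.564). Socs2 differed by -0.57 (SE 0.25) without overlap at the brightest of its 6 probe sets. At 1418507_s_at all knockout pools were also lower and under the control level, so that wild type was at least 1.26-fold higher. The groups overlapped at its other probe sets.

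Downstream, most genes known to respond to STAT5 had lower means in knockout pools. Of the 20 measured 16 were lower, against 58.1% of all genes, and the median was -0.44. All knockout pools lay below all wild type pools for 9 of them (9.85% of all genes) and above for 2 (7.02%). This list, like the others, was chosen with earlier results of these data known, so the shares are no independent test. Pim1, a survival kinase, read 10443.1, 11622.2 and 14739.0 in wild type and 4090.9, 5564.2 and 4318.2 in knockout pools. It fell by 1.40 at this probe set, its brightest (SE 0.25, adjusted p = 0.0184 in limma with the trend, 0.311 without it). At its other probe set, 1423006_at, the difference was -0.86 (SE 0.26) without overlap. Pim1 did not pass there (adjusted p = 0.152 in limma with the trend, 0.553 without it). The Pim1 call held without wild type pool 3 alone and ended without any other single array (adjusted p up to 0.123). Spred2 (1.15), an inhibitor of ERK signalling, and Myc (1.10) had higher values in all knockout pools and did not pass (adjusted p = 0.340 and 0.439).

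Genes known to respond to STAT3 did not lie to one side. Of 22 measured, 12 were lower and 10 higher, with a median of -0.084, close to the -0.085 of all genes. All knockout pools lay below all wild type pools for 4 of the 22 (9.85% of all genes) and above for 3 (7.02%). Socs3 and Pim1, the 2 genes of this list that passed with the trend, are held by the STAT5 list as well. Cebpd, a transcription factor of the acute phase response, read 107.8, 153.6 and 182.7 in wild type and 381.7, 443.1 and 730.3 in knockout pools. Its values did not overlap, with knockout at least 2.95-fold higher and an adjusted p of 0.376; at its dimmer probe set they overlapped (0.37).

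The lists for the other factors held no gene that passed by limma with or without the trend. Of 22 measured interferon-stimulated genes, read for STAT2, 13 were lower, with a median of -0.18. Rsad2, which encodes the antiviral protein viperin, read 13565.9, 22763.4 and 13524.6 in wild type and 8604.1, 7876.5 and 6233.2 in knockout pools (-1.10, SE 0.30, adjusted p = 0.520). Irf9, the partner of STAT2, differed by 0.45 with overlap, Oas2 by -0.45 and Irf7 by 0.42. Of 18 STAT6 responsive genes 15 were lower (58.1% of all genes), with a median of -0.60. All knockout pools lay below all wild type pools for 4 of the 18 (9.85% of all genes) and above for 0 (7.02%). A group mean above the control level was found for 10, of which 8 were lower. Among those 10 the smallest p-values belonged to Cish, which stands in this list too, Klf4, Cdh1 and Ccl17. Cdh1, the cell adhesion protein E-cadherin, differed by -0.66. Klf4 and Ccl17 had knockout means below the control level, which leaves bounds on the measured means only. These were at least 1.09-fold higher in wild type for Klf4, and at least 1.12-fold higher for Ccl17. The groups overlapped for Klf4. The intervals of the differences, -2.03 to 0.19 for Klf4 and -1.36 to 0.18 for Ccl17, included 0. Of 13 STAT4 responsive genes 5 were lower, 6 lay above the control level in a group, and the median was 0.034. Among those 6, Il18rap (-0.33), Furin (-0.39), Gadd45g (0.21) and Prf1 (-0.22) had the smallest p-values.

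**Figure D5:**
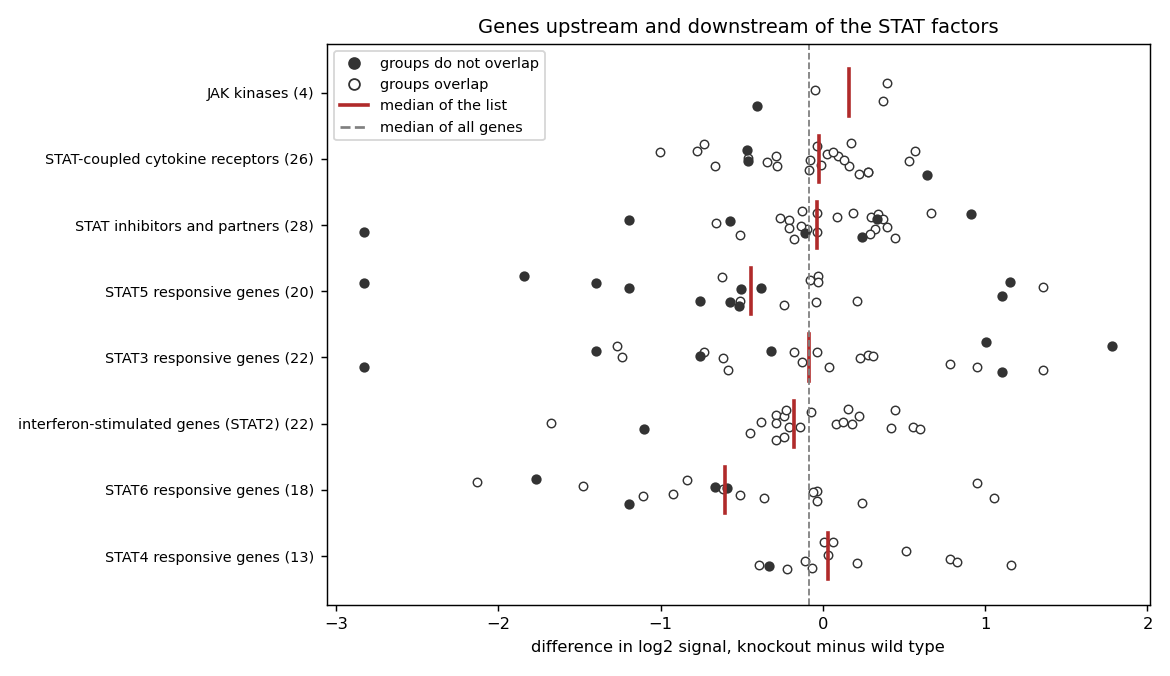
Difference in log2 signal, knockout minus wild type (horizontal axis), of each measured gene of the lists upstream and downstream of the STAT factors (vertical axis, number measured in brackets), with the list's median in red and the median of all genes (-0.085) dashed. The STAT5 responsive genes have a median of -0.44, the STAT6 responsive genes one of -0.60 and the STAT3 responsive genes one of -0.084. Some genes stand in several lists.

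Markers of other cells were read because STAT genes are expressed outside the erythroid lineage too. The 8 measured erythroid markers, among them Slc4a1, Alas2 and Klf1, lay above the control level on all arrays. Of these 7 had lower means in knockout pools (58.1% of all genes), 2 of them without overlap (9.85% of all genes). The median of the 8 was -0.15, and the summed signal ran from 241176 to 251992 in wild type and 198653 to 251085 in knockout. All 9 measured hepatocyte markers had lower means in knockout pools, 6 of them without overlap, with a median of -0.65. Their summed signal ran from 142766 to 236293 in wild type and from 123328 to 135550 in knockout pools, without overlap. Of 8 endothelial markers 7 were lower, 1 without overlap (summed signal 2353 to 4142 against 2262 to 2650). Of 10 macrophage markers 4 were lower, 2 without overlap (17945 to 28428 against 23112 to 32109). Megakaryocyte, granulocyte and mast cell, and B cell sums overlapped, and those of T and natural killer cells ran from 1894 to 2782 in wild type and 1397 to 1966 in knockout. The part of these cells in the STAT differences was not tested. In bulk RNA, fewer cells of a type and less RNA per cell cannot be told apart.

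The genes whose pattern over the 6 arrays was most like that of each STAT gene at its brightest probe set were taken from those above the control level on all arrays. For Stat5a they were Alg14 (Pearson r = 0.986) and Cspg4 (0.985), and for Stat5b Jpt1 (0.992) and Nrn1 (0.990). All 4 had lower values in every knockout pool, which follows from their choice by likeness and is no separate finding. An r over 0.95 was found for 55 genes with Stat5a and for 65 with Stat5b. Alg14 read 825.3, 789.8 and 795.3 in wild type and 389.5, 386.7 and 464.3 in knockout pools. For Stat3 they were Cog1 (0.993) and Arrb2 (0.989), for Stat6 Rab30 (0.990) and Mettl8 (0.989), and for Stat2 Slc41a1 (0.999) and Slc36a1 (0.984). Those of Stat2 and Stat6 had their highest value in wild type pool 2, as the STAT probe sets did. Spag7 (0.977) and Trip10 (0.971) were nearest to Stat4, whose own probe set lay under the control level. These values rest on 6 points that share genotype and array, out of 9838 or 9839 genes compared, and are given as a description.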

How the data were processed

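The deposited table holds 1 linear intensity per probe set and array. RMA and Partek are named, without versions, per the submitters' processing notes, but the 2% trimmed mean is 500.0 on every array, as array-wise scaling leaves it; the sources used here do not say how this came about. Log2 of the intensity was taken with no pseudocount (0 values at or below 0). Of 45101 probe sets 64 controls were left out, and 34945 had 1 symbol in the platform annotation. Knockout was compared with wild type by lmFit and eBayes of limma 3.58.1 in R 4.3.3 on all 6 arrays, adjusted by Benjamini-Hochberg over 45037 probe sets at 0.05. A gene in a list was read at its brightest probe set.

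The members and the lists were chosen with earlier results of these data known. Named were all STAT probe sets, JAK kinases, neighbours of the locus and the 2 genes most alike. So were list members past the adjusted threshold, or else the 4 with the smallest p above the control level. Epor, the genes passed with the trend and further probe sets of some named genes were added after their values were seen. Other named genes are given at their brightest probe set only. A fold with a group under the control level is a bound on the measured means, with that group's values raised to the level. Alternatives were the trend, the methods' t-test, quantile normalization, median centring, leaving out the dimmer 50% of probe sets, adding 32 to the intensity, a block for the replicate number, array weights, dropping single arrays in turn, averaging a gene's probe sets, and omitting those named _x_at, _s_at or _a_at. Fits with the trend were also run with the block and with single arrays dropped, an alternative chosen after seeing the data. The fits were tested on simulated data.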

Additional observations from a re-analysis of the deposited data

How the results depend on the processing

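Of 179 recomputed differences of single STAT probe sets 164 kept their direction, all 55 of Stat5a and Stat5b included, and 15 at 4 probe sets of Stat2 and Stat3 changed sign. None was called in any setting. The trend, the methods' t-test, the filter on dim probe sets and the block leave a difference unchanged by construction. A kept direction in those settings is therefore no test of stability. The sign of Stat2 1450403_at (-0.067) turned with quantile normalization (0.016), median centring (0.046), array weights (0.019), and without wild type pool 2 (0.23) or knockout pool 3 (0.057), and ran from -0.23 to 0.23 with single arrays left out. That of Stat3 1460700_at (-0.013) turned with median centring (0.10) and array weights (0.11), and ran from -0.23 to 0.16 with single arrays left out, being above 0 without wild type pool 2 (0.033), pool 3 (0.16) and knockout pool 2 (0.096). Stat3 1424272_at (-0.33) ran from -0.55 to 0.023 with single arrays left out, above 0 only without wild type pool 2. Stat3 1459961_a_at (0.033) ran from -0.19 to 0.40 and was below 0 without wild type pool 1 (-0.16), pool 3 (-0.048), knockout pool 1 (-0.10) or pool 2 (-0.19). The causes were not tested. The count of STAT probe sets called was 0 in every setting. The count meeting the submitters' criterion was 4, and 2 to 4 without 1 array. Of genes in the pathway lists 0 passed in limma, 2 with the trend (Socs3 and Pim1), 1 without the dimmer probe sets and 1 with a gene's probe sets averaged (Socs3 each time). Leaving out the dimmer 50% removed 3 of the 13 STAT probe sets.

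Replicate numbers are shared by the genotypes, but the labels tie them to no litter or day. Deviations of same-numbered pools correlated by 0.091, 0.11 and 0.092 over 23258 probe sets, and the other pairs by -0.11 to 0.020, so each pool was nearest to its own number as a hint from the data only. With the replicate number as a block, 2 STAT probe sets met the submitters' criterion and 0 passed after adjustment.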

Other observations

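The probe sets of Ptpn2 and of the genes that follow were chosen here after their values were seen. Ptpn2, the phosphatase that acts on nuclear STATs, had higher signals in all knockout pools at 1438562_a_at (2187.5, 1305.2 and 1261.1 in wild type, 3146.8, 2799.3 and 2715.8 in knockout) and at 1417140_a_at (0.37). At the dimmer 1425197_at all knockout pools were lower (135.9, 218.3 and 194.3 against 87.8, 135.3 and 92.3), but under the control level, so that wild type was at least 1.10-fold higher. None of its 4 probe sets passed (adjusted p between 0.564 and 0.666, limma).

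Rsad2 gave the same direction at all 3 of its probe sets, with differences of -1.03, -1.15 and -1.10 and no overlap of the groups at any. Its wild type pool 2 was the highest array at each. At their brightest probe sets, the other measured interferon-stimulated genes had overlapping groups.

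Socs3 read lower in all knockout pools at all 3 of its probe sets, and under the control level there, so that wild type was at least 3.06-fold, 3.69-fold and 5.27-fold higher. In the fit with the mean-variance trend all 3 passed (adjusted p = 0.0246, 0.0094 and 0.0094).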
